A study of Ovis aries with 7 samples.

Results

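Mitochondrially encoded RNA was described in sheep (Ovis aries) embryos made by in vitro fertilization (IVF) and collected at the 8-cell stage. The members are the rows of the authors' deposited TPM table whose names carry the locus tag prefix of the sheep mitochondrial genome. There were 37 such rows of 31304 in all, made up of 13 mRNA, 2 rRNA and 22 tRNA rows, and the RefSeq gene table placed all of them on the mitochondrial genome. The labels name 3 IVF samples and 4 samples made by somatic cell nuclear transfer (SCNT). Values belong to the 3 IVF libraries. The other 4 columns of the table are named in a way found in none of the labels, so SCNT samples were not analysed here and no comparison of SCNT with IVF is given. The labels give no breed and no number of embryos per library, and they do not say which library came from which of the independent trials. The spread between libraries may therefore be partly technical.

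The mitochondrial genome of mammals is a small circle inherited through the egg. It is transcribed from both strands as long precursors, and tRNAs lying between the other genes mark where these are cut. Most of the mRNAs that result gain short polyA tails. The mRNAs encode core subunits of respiratory complexes I, III and IV and of ATP synthase (complex V), whose other subunits come from nuclear genes. In the cleaving embryo the mitochondria and their genomes are a store laid down by the oocyte.

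PolyA RNA was amplified by Smart-seq2 for 20 PCR cycles. TPM, a measure of transcript abundance, divides reads by the length of a row and by the library total, so levels of different rows can be compared, but a rise of the share cannot be told apart from less RNA of other genes, and more mitochondria cannot be told apart from more RNA per mitochondrion. For the mitochondrial rows the reads behind the TPM could be recovered, since TPM multiplied by row length gave whole multiples of a single step in 37 of 37 rows and in each library, to within 1e-06 of a read. The members held 366086, 829788 and 381582 reads in IVF replicates 1, 2 and 3. Replicate 2 had the most. Summed over all rows of the table, reads per base of length were 1.04 and 1.38 times as many in replicates 1 and 3 as in replicate 2, a sum that abundant short rows can dominate. Markers fixed for the embryo and oocyte were at 1 TPM or more in every library in 8 of 8 cases, against 1 of 8 for cumulus and granulosa cells (HAS2), 0 of 4 for sperm and 1 of 6 for fibroblasts (VIM).

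Mitochondrially encoded rows took 2.55, 5.53 and 1.94% of all TPM in IVF replicates 1, 2 and 3, a mean of 3.34 ± 1.92% (SD, n = 3). Replicate 2 held the highest share, 2.85 times the lowest. The mRNA rows made up most of it, at 88.3, 88.3 and 85.7% of the mitochondrial TPM. The rRNA rows took 10.2, 9.09 and 12.1%, and the tRNA rows 1.44, 2.60 and 2.18%. PolyA RNA was sequenced, per the labels, and its part in the share of rRNA was not tested. At 1 TPM or more in every library were 13 of 13 mRNA rows, 2 of 2 rRNA rows and 9 of 22 tRNA rows. Among the 100 most abundant rows of the table, 6, 12 and 3 were mitochondrial in replicates 1, 2 and 3.

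Complex I, the NADH dehydrogenase that feeds electrons into the chain, has 7 members here, and these spanned the widest range of levels. ND4, a proton-pumping membrane subunit, reached 4306, 6879.9 and 2721 TPM (replicates 1, 2 and 3). Its neighbour ND4L was at 4608, 5820.5 and 3009 TPM. These were the highest levels of the complex in all libraries, and neither was above the other throughout. ND2 was at 2084, 3975 and 1701 TPM. ND1 was at 1598, 3683 and 1615 TPM, and ND3, a small subunit, at 1261, 1786 and 797 TPM. All of these were highest in replicate 2. ND5, the longest row, was at 413, 1415 and 413 TPM. ND6 was the lowest mitochondrial mRNA, at 62.6, 282 and 66.7 TPM. The part of the choice of polyA RNA in this level was not tested. In mammals ND6 is the protein gene that lies on the strand opposite to the others. ND5 exceeded ND6 by 2.55 ± 0.20 on the log2(TPM + 1) scale, in 3 of 3 libraries, and ND6 stood at 15.2, 19.9 and 16.1% of ND5. The ends of ND5 and ND6 overlap on the gene map. Smart-seq2 does not mark the strand, and both strands are transcribed as long precursors. Reads anywhere in the ND6 row, not only in the overlap, may therefore come from the opposite strand.

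CYTB, the cytochrome b of complex III, differed more between libraries than any complex I subunit, by 5.12 times. Its TPM was 2393, 8899 and 1738 in replicates 1, 2 and 3, from 45334, 162447 and 43893 reads. In replicate 2 it was the most abundant mitochondrial row and the 8th most abundant row of the table, against the 60th in replicate 1 and the 100th in replicate 3. Relative to ND4 it stood at 55.6, 129 and 63.9%, so their order turned round in replicate 2.

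Complex IV, the cytochrome c oxidase that passes electrons to oxygen, has its catalytic core in COX1, COX2 and COX3. COX1 reached 753, 3347 and 841 TPM (replicates 1, 2 and 3), and COX2, which receives electrons from cytochrome c, at 635, 1446 and 383 TPM. COX3 was at 455, 2901 and 687 TPM. All were highest in replicate 2, and COX3 had the highest ratio between libraries of any mRNA row, 6.38. COX2 stood at 84.3, 43.2 and 45.6% of COX1.

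The ATP synthase subunits ATP6, part of its proton channel, and ATP8, a short accessory subunit, lie on a common mRNA in mammals and their reading frames overlap. ATP6 reached 2606, 6568 and 1718 TPM (replicates 1, 2 and 3), and ATP8 at 1363, 1831 and 919.5 TPM. ATP8 therefore stood at 52.3, 27.9 and 53.5% of ATP6, below it in every library. The likewise overlapping pair of ND4L and ND4 gave 107, 84.6 and 111%. The sources used here do not give how reads in a stretch shared by overlapping rows were assigned, and this weighs most on short rows such as ATP8 and ND4L.

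The rRNA rows, which encode the RNA of the mitochondrial ribosome, were within the range of the mRNAs. The shorter, KEF53_r02 with 958 bases, reached 1693, 2935 and 1534 TPM (replicates 1, 2 and 3). The longer, KEF53_r01 with 1574 bases, was at 911, 2091 and 811 TPM. The shorter row was 1.86, 1.40 and 1.89 times the longer, higher in 3 of 3 libraries.

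**Figure D1:**
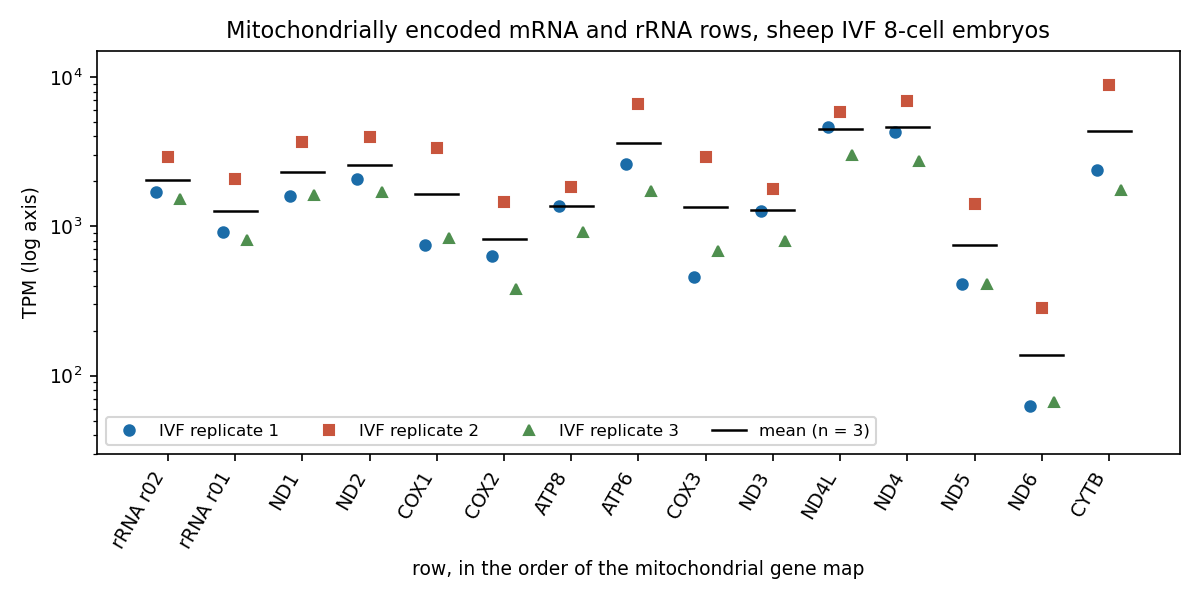
TPM of the 13 mRNA and 2 rRNA rows on a log axis, in the order of the mitochondrial gene map, with a point for each of the 3 IVF libraries and a bar for their mean. Replicate 2 is the highest point in each of the 15 rows, and ND6 lies lowest, at 62.6, 282 and 66.7 TPM in replicates 1, 2 and 3.

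Placed by mean TPM, the order began ND4, ND4L, CYTB, ATP6, ND2 and ND1 and ended COX2, ND5 and ND6. Most neighbours in this order were not separated by more than the spread between libraries. The order was taken from these same libraries, which partly fixes the direction of each difference, so the count that follows is a description. Of 14 neighbouring pairs among the mRNA and rRNA rows, 3 differed in the same direction in every library by a mean above its SD. These were ND2 over ND1 (0.19 ± 0.17 on the log2(TPM + 1) scale), KEF53_r01 over COX2 (0.71 ± 0.32) and ND5 over ND6. Across the 13 mRNA rows, Spearman's coefficient between libraries was 0.890 for replicates 1 and 2, 0.973 for 1 and 3 and 0.929 for 2 and 3. It is a description, since rows of a library share its depth, amplification and precursor RNA.

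In the mRNA pool, meaning the TPM of the 13 mRNA rows, ND4L, ND4, CYTB and ATP6 were the 4 largest by mean share. They were picked from these same libraries. Together they held 61.7, 57.7 and 55.3% of the pool in replicates 1, 2 and 3, a mean of 58.2 ± 3.25% (SD, n = 3). The share of all 13 rows in the library was 2.25, 4.88 and 1.66%. The spread of a part of a closed total is bounded, so it cannot be set against that of the pool. Within the pool ND4L held 20.4, 11.9 and 18.1%, lowest in replicate 2. CYTB held 10.6, 18.2 and 10.5%, highest in replicate 2. COX3 had the largest ratio between libraries within the pool, 2.94, at 2.02, 5.94 and 4.14%. By complex, the 7 subunits of complex I held 63.6, 48.8 and 62.1% of the pool and the 3 of complex IV held 8.18, 15.8 and 11.5%. Complex V subunits held 17.6, 17.2 and 15.9%. The summed part of complex V thus moved little between libraries, while complex I was lowest and complexes III and IV were highest in replicate 2. The members of complex V moved in opposite directions. In replicate 2 ATP6 was highest (11.56, 13.45 and 10.35% in replicates 1, 2 and 3) and ATP8 lowest (6.05, 3.75 and 5.54%).

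**Figure D2:**
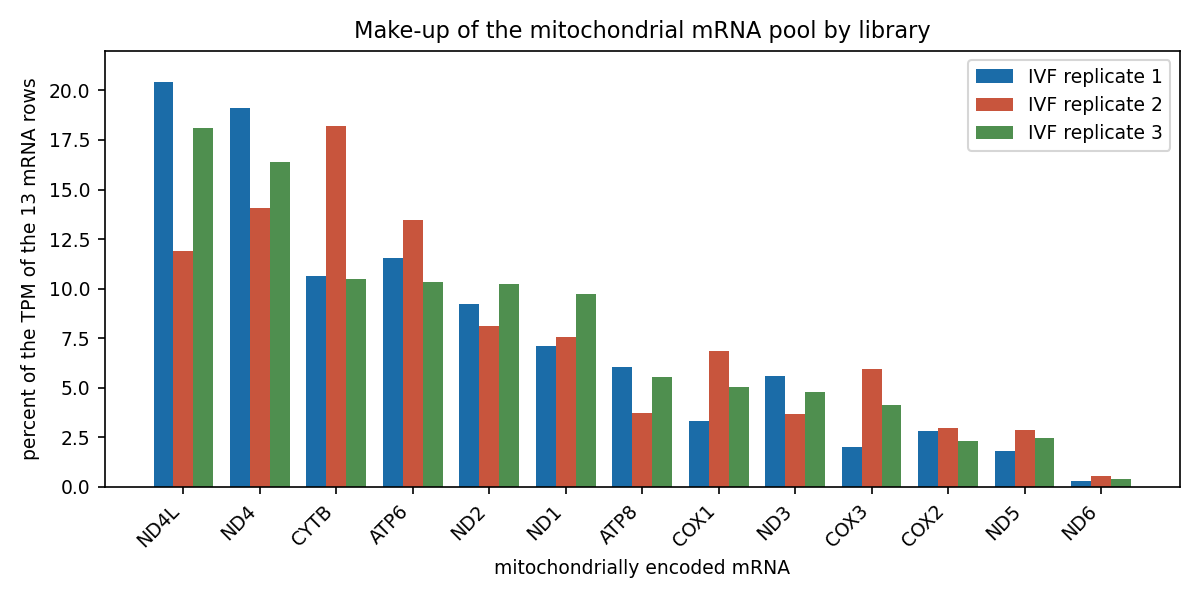
Share of each mitochondrial mRNA in the TPM of the 13 mRNA rows, as bars from 0 for each of the 3 IVF libraries, ordered by mean share. ND4L and ND4 are lowest in replicate 2, at 11.9 and 14.1%, where CYTB reaches 18.2%.

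Each library was then set against the mean of the other 2 on the log2(TPM + 1) scale, with no test since each contrast holds a single library. Among rows of the table with a mean of at least 5 TPM, 12.8% of 6978 were at least 2-fold higher in replicate 2 and 3.85% at least 2-fold lower. Of the 13 mRNA rows, all of which passed that filter, 10 were at least 2-fold higher and 0 lower. The median difference of the 13 was 1.55, against 0.19 for all rows counted. The largest were those of COX3 (2.37), CYTB (2.12), ND6 (2.11) and COX1 (2.07). The rows that did not reach 2-fold were ND3 (0.83), ATP8 (0.71) and ND4L (0.64), which are the 3 shortest mRNA rows. Over the 13 rows, Spearman's coefficient between row length and this difference was 0.48 in replicate 2, -0.55 in replicate 1 and -0.13 in replicate 3. These coefficients describe rows that share a library, and the contrasts share libraries too. The rRNA rows were higher by 0.86 (KEF53_r02) and 1.28 (KEF53_r01).

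In replicate 1, 0 of 13 mRNA rows were at least 2-fold higher, where the share of all rows was 5.65%, and 3 were lower, where it was 7.71%. Those lower were COX3 (-1.63), COX1 (-1.16) and ND6 (-1.12). In replicate 3, 0 of 13 were higher, with 0.817% of all rows, and 4 were lower, with 2.62% of all rows. They were CYTB (-1.41), COX2 (-1.32), ATP6 (-1.27) and, just past the threshold, ND4. Both sets of lower rows rest on replicate 2, because without it 0 of 13 rows were 2-fold lower in replicate 1 or in replicate 3. The share of all rows without replicate 2 was not counted.

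**Figure D3:**
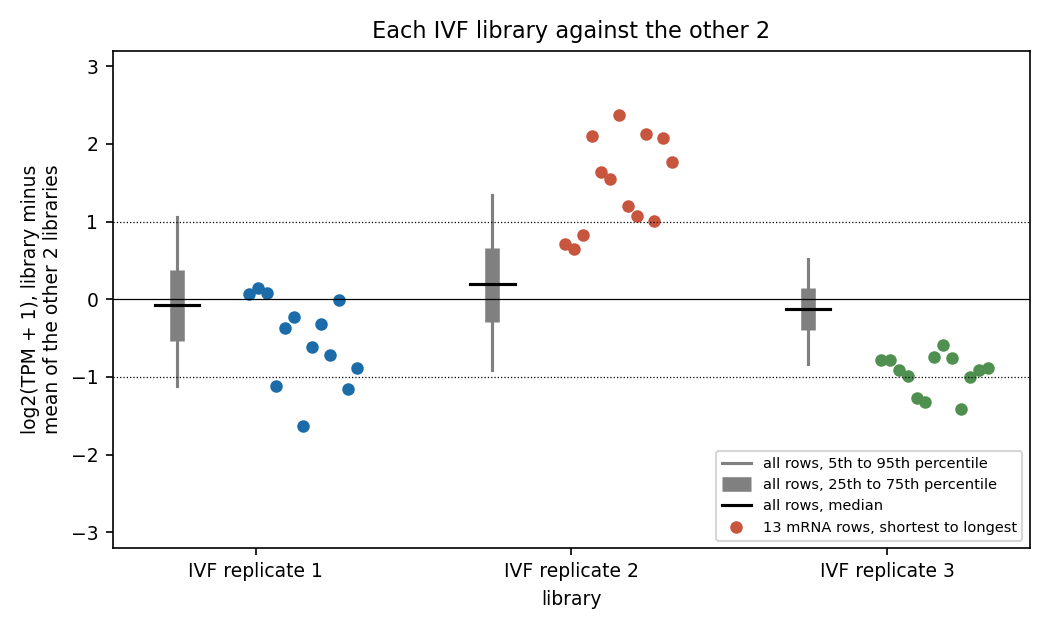
Difference of each IVF library from the mean of the other 2 on the log2(TPM + 1) scale. Grey bars give the 5th to 95th and 25th to 75th percentiles of 6978 rows, black lines their medians, and points the 13 mitochondrial mRNA rows from shortest to longest, with dotted lines at 2-fold. All 13 points lie above 0 in replicate 2, between 0.64 and 2.37.

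Other values also differed in replicate 2. Nuclear tRNA rows took 0.0496, 0.144 and 0.0772% of TPM in replicates 1, 2 and 3. Summed markers were at 10.2, 16.5 and 9.60 TPM for cumulus and granulosa cells and at 7.67, 14.02 and 11.1 TPM for fibroblasts. Those for sperm were at 0.755, 3.03 and 1.94 TPM. PTX3, FOXL2, PRM1 and AKAP4 were listed at 0 in all libraries. Of the first sum HAS2 gave 9.86, 13.1 and 7.09 TPM, and of the second VIM gave 6.48, 8.84 and 8.37 TPM. Not every marker was highest in replicate 2. INHA was at 0, 0.0563 and 0.570 TPM and ODF1 at 0.755, 0.214 and 0.0515 TPM. Of the 8 embryo and oocyte markers, 4 were at least 2-fold higher and 1 at least 2-fold lower in replicate 2, beside 12.8 and 3.85% of all rows. Those higher were ZSCAN4 (1.80 on the log2(TPM + 1) scale), GDF9 (1.56), ARGFX (1.32) and ZP4 (1.12), and the lower was MOS (-1.21). The part of these values in the mitochondrial difference was not tested.

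Mitochondrial tRNA rows rested on few reads. Over the 22 rows there were 413, 1553 and 638 reads in replicates 1, 2 and 3. A single row, KEF53_t22, which is 66 bases long and the last on the gene map after CYTB, held 66.6, 68.8 and 50.6% of them. It was at 251, 1011 and 221 TPM, from 275, 1069 and 323 reads. That placed it at 10.5, 11.4 and 12.7% of CYTB, a ratio that moved little while both rows were highest in replicate 2. The tRNA row between them, KEF53_t21, had 6, 16 and 12 reads and stood at 0.216, 0.160 and 0.445% of CYTB. The next highest by mean TPM were KEF53_t03, between KEF53_r01 and ND1, with 36, 133 and 71 reads, and KEF53_t16, between ND3 and ND4L, with 34, 83 and 52 reads. They were at 28.9, 111 and 42.7 TPM and at 29.6, 75.1 and 34.0 TPM.

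Most other tRNA rows were close to the limit of detection. At 10 reads or more in every library were 7 of 22, and 11 of 22 had a read in every library. The 5 rows with no read in any library were KEF53_t01, the first on the map, the adjacent KEF53_t17, KEF53_t18 and KEF53_t19 between ND4 and ND5, and KEF53_t20 between ND6 and CYTB. Taken as an upper bound alone at 95%, a count of 0 allows up to 3 reads per library, for counting error only. For a row of 69 bases that is 2.62, 2.72 and 1.96 TPM in replicates 1, 2 and 3. The upper end of a two-sided 95% interval is 3.69 reads. KEF53_t04 illustrates the weight of single reads, with 0, 27 and 4. The reads were sequenced as pairs of 150 bases, longer than any of these rows, so the tRNA values depend on how reads reaching into a neighbouring row were counted, which the sources used here do not give.

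**Figure D4:**
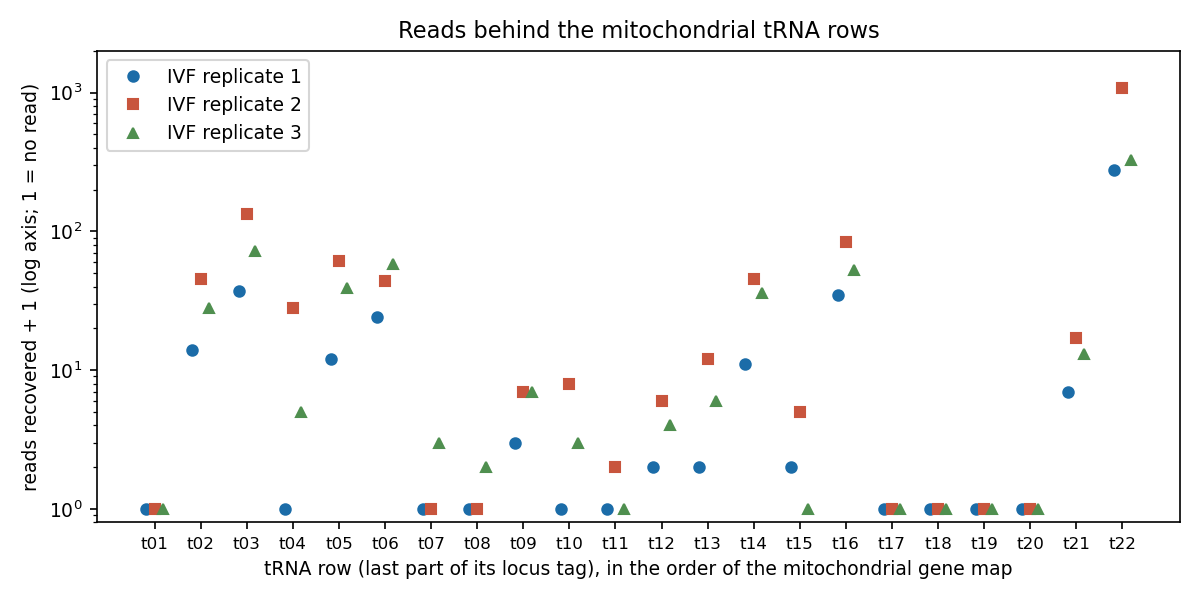
Reads recovered for each of the 22 mitochondrial tRNA rows plus 1, on a log axis, in the order of the gene map, with a point for each IVF library. KEF53_t22 stands highest with 275, 1069 and 323 reads in replicates 1, 2 and 3, and 5 rows have none.

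Mitochondrially encoded subunits were then set beside nuclear-encoded subunits of the same complexes. The median of the 13 mitochondrial mRNAs was 1363, 3347 and 919.5 TPM in replicates 1, 2 and 3, against 124, 152 and 156 TPM for 56 nuclear rows. The mitochondrial median was 3.49 ± 0.95 higher on the log2(TPM + 1) scale (SD, n = 3), higher in 3 of 3 libraries. The nuclear rows were 37 of complex I, 16 of complex V, 1 of complex III and 2 of complex IV. The pooled difference thus sets mitochondrial rows of each complex against nuclear rows mostly of complexes I and V. An exact two-sided sign-flip test over the libraries gave p = 0.25, the smallest that 3 libraries allow. Without replicate 2 the difference was 3.00. The mitochondrial side varied with the library while the nuclear side as a whole did not follow it, and replicate 2 had the highest mitochondrial but not the highest nuclear median. In complex I, where 37 nuclear subunits were measured, the medians were 1598, 3683 and 1615 TPM for the mitochondrial and 109, 138 and 148 TPM for the nuclear subunits. In complex V, with 16 nuclear subunits, they were 1984, 4199.7 and 1319 TPM for the mitochondrial and 182, 227 and 208 TPM for the nuclear subunits.

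The separation was not complete. Of the 56 nuclear subunits, 4 had a mean above the median of the mitochondrial means, and NDUFA4, a subunit associated with complex IV, had a mean above that of each mitochondrial mRNA, at 5116 ± 1251 TPM. By library NDUFA4 was at 4151, 4668 and 6529 TPM in replicates 1, 2 and 3. It lay below ND4L and ND4 in replicate 1 and below CYTB, ND4, ATP6 and ND4L in replicate 2, and above all 13 mitochondrial mRNAs in replicate 3. The ATP synthase subunits ATP5MK, ATP5PF and ATP5MG were at 2123 ± 281, 1929 ± 436 and 1909 ± 426 TPM. In the other direction ND6, at 137 ± 125 TPM, was the 1 mitochondrial mRNA whose mean lay below the nuclear median. ND6 was below that median in replicates 1 and 3 and above it in replicate 2, at 282 against 152 TPM. For complexes III and IV the nuclear rows measured were 1 of 9 and 2 of 14 fixed names (UQCRH, at 421 ± 225 TPM, and NDUFA4 and COX5A), too few to describe those complexes. The remaining names were not analysed here. For complex IV the mitochondrial median minus that of NDUFA4 and COX5A was -1.77, 0.63 and -1.63 (replicates 1, 2 and 3, log2(TPM + 1) scale). The mitochondrial median of complex IV was thus higher in 1 of 3 libraries.

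**Figure D5:**
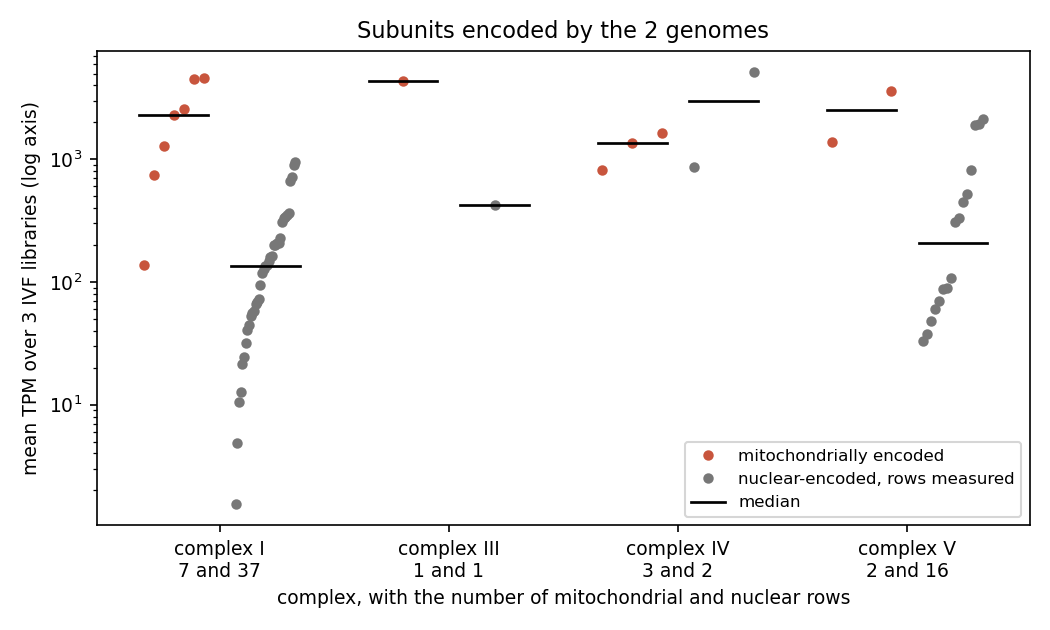
Mean TPM over 3 IVF libraries on a log axis for subunits encoded by the mitochondrial genome and by the nucleus, by complex, with a line at each median. In complexes I and V the mitochondrial medians lie above the nuclear ones. In complex IV the mitochondrial median lies below that of the nuclear rows. Complexes III and IV hold 1 and 2 nuclear rows.

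Nuclear genes that copy, process and degrade mitochondrial RNA were present at lower levels. The lists were fixed by function. Of 8 measured genes for transcription, 7 were at 1 TPM or more in every library, and replicates 1, 2 and 3 had list medians of 8.92, 12.9 and 10.1 TPM. TFB2M, which melts the promoter for the polymerase, was highest at 202 ± 51.7 TPM, ahead of MTERF3 at 54.7 ± 25.98 and of TFAM, which packages the genome and starts transcription, at 49.6 ± 4.14. The polymerase POLRMT itself was at 6.94, 13.02 and 9.77 TPM, and MTERF2 was listed at 0 throughout. Replication and nucleoid genes were lower still, with a median of 4.28, 5.90 and 3.81 TPM and 8 of 9 at 1 TPM or more. POLG, the catalytic subunit of the mitochondrial DNA polymerase, was at 0.226, 0.729 and 0.292 TPM, while its accessory subunit POLG2 was at 14.7, 35.9 and 19.8 TPM.

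Processing factors had a median of 9.92, 11.9 and 10.1 TPM, with 12 of 13 at 1 TPM or more in every library. Highest were HSD17B10 and TRMT10C, which with PRORP form the enzyme that cuts the leading ends of tRNAs, at 642 ± 192 and 162 ± 73.3 TPM. PRORP, the nuclease among them, was at 17.96 ± 3.70 TPM. Genes for stability, polyadenylation and decay had a median of 12.8, 19.2 and 12.4 TPM, with 8 of 8 at that level. SLIRP, which protects mitochondrial mRNAs, was at 353 ± 104 TPM, its partner LRPPRC at 13.7 ± 3.52 and the polyA polymerase MTPAP at 1.99 ± 0.425. With means of at least 5 TPM, 0 of 7 transcription, 1 of 4 replication, 0 of 8 processing and 1 of 7 stability genes were at least 2-fold higher in replicate 2, where the share of all rows was the 12.8% given above. Those that reached 2-fold were POLG2 (1.03 on the log2(TPM + 1) scale) and PNPT1 (1.41), which takes part in RNA decay. The median differences of these lists in replicate 2 were 0.54 (transcription), 0.26 (replication), 0.42 (processing) and 0.55 (stability). For all rows counted the median was 0.19. The replication value was close to that and rests on 4 genes that went both ways. POLG2 (1.03) and DNA2 (0.68) were higher, and RNASEH1 (-0.15) and MGME1 (-0.65) lower. The part of these genes in the mitochondrial difference was not tested.

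Regulators of mitochondrial number were at a median of 3.31, 3.97 and 4.30 TPM in replicates 1, 2 and 3, led by GABPA at 81.6 ± 21.7 TPM, and 6 of 7 were at 1 TPM or more in every library. Mitophagy genes, which mark mitochondria for removal, had a median of 26.01, 27.2 and 26.2 TPM with 8 of 9 at that level. Their highest member FUNDC1 was at 958 ± 7.60 TPM and BNIP3 at 445, 180 and 264 TPM, lowest in replicate 2. Mitophagy genes went both ways in replicate 2, with BNIP3 at -0.93 and SQSTM1 at 0.90 on the log2(TPM + 1) scale. Over the 8 that passed the 5 TPM filter, the median difference there was 0.009, against 0.19 for all rows counted. Of these 8, 0 were at least 2-fold higher and 0 at least 2-fold lower in replicate 2.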

How the data were processed

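Labels describe polyA Smart-seq2 libraries of sheep 8-cell embryos. The deposited table holds TPM made by the authors for 31304 rows. Per the submitters' processing notes the tools were fastp 0.23.4 for trimming and HISAT2 2.2.1 for alignment, while the counting tool, sheep build and annotation are not stated there. Columns were assigned by name; 4 columns match no label and were not used, though some of their values were seen while the table was inspected. The planned design held IVF libraries only.

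Members and lists were chosen with earlier results of these data known. Symbols, row lengths and gene order came from the ARS-UI_Ramb_v3.0 RefSeq table; the build of the deposited table may differ, so no coordinates are given. Reads were recovered as TPM × length divided by the smallest step. Recovery and fold counts were run on simulated data as a check of the code only. Each simulated library held a row with a single read, which makes recovery succeed by construction. The simulated spread between libraries was a fixed setting and was not taken from these data. Means are over 3 libraries, the pseudocount was 1, the fold threshold 2 and the detection threshold 1 TPM. Named were all mRNA and rRNA rows, the 3 highest tRNA rows and up to 4 highest members per list. POLRMT, MTERF2, POLG, PRORP, LRPPRC, MTPAP, PNPT1, MOS, ZSCAN4, GDF9 and SQSTM1 were added after their values were seen. So were the markers listed at 0, KEF53_t04, KEF53_t21 and the tRNA rows at 0. FASTKD4 and TBRG4 name the same gene and count once. Copies of mitochondrial sequence in the nuclear genome can share reads with these rows, and how such reads were counted is not given. Alternatives were other pseudocounts, thresholds and scalings and leaving out each library. Tools were pandas 2.3.3, numpy 2.4.6 and scipy 1.17.1 under Python 3.11.15, with figures by matplotlib 3.10.9.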

Additional observations from a re-analysis of the deposited data

How the results depend on the processing

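No paired analysis was possible because IVF libraries alone were used. The share of mitochondrial rows in all TPM, 3.34%, was 3.27% without tRNA rows of either genome, 4.34% without rows that have only a LOC identifier and 2.24 to 4.04% with each library in turn removed, the lowest being without replicate 2. Rows at the detection threshold numbered 24 at 1 TPM, 26 at 0.1 TPM, 23 at 5 TPM and 24 to 28 with a library left out. The 10 mRNA rows at least 2-fold higher in replicate 2 were 10 with pseudocounts of 0.1 and 5, 7 with median of ratios scaling over nuclear rows, 8 to 11 with a library left out, and 1 when each row was taken as a share among the 13 protein-coding rows, a scaling that removes the size of the pool by construction. Under that scaling the 3 rows lower in replicate 1 became 1 and the 4 lower in replicate 3 became 0. With a library left out, an alternative added after seeing the data, rows lower in replicate 1 ranged from 0 to 8. In replicate 3 they ranged from 0 to 11, and both counts were 0 without replicate 2. The share of all rows called was counted for the main setting only. Counts of mRNA rows under the alternatives therefore have no background beside them and are a description of the setting. The difference between mitochondrial and nuclear subunits, 3.49 on the log2 scale, was 3.45 to 3.49 with other pseudocounts and 3.00 to 3.95 with a library left out. The 58.2% held by the 4 largest mRNA rows was 52.0% with rRNA rows in the sum, which enlarges the sum by construction, and 56.5 to 59.7% with a library left out. Counting error is small for mRNA rows, the fewest reads being 549 for ND6 in replicate 1, and large for most tRNA rows. Intervals from reads cover counting error only, since amplified reads are not independent molecules.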
